A study of Homo sapiens with 10 samples.

Results

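Transcripts of 10 genes of the bone morphogenetic protein (BMP) pathway were followed in HS-SY-II cells exposed to WA-68. The genes were the ligands BMP3, BMP4 and BMP7, the secreted antagonist NOG, the decoy receptor BAMBI, the inhibitory SMADs SMAD6 and SMAD7, and the targets ID1, ID2 and ID3. They were selected by gene symbol from the 63140 gene identifiers counted, in all 5 groups. The set was chosen on a reading of these same data, in which BMP3 had been seen to rise. Which other values entered that choice is not recorded, so the levels and differences of the 10 genes are given as a description. Which of them the fit over all genes called is given below as a description too, and supports nothing. All 10 were among the 16382 genes with enough counts to be fitted.

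HS-SY-II is an established human synovial sarcoma line, and synovial sarcoma is defined by the SS18-SSX fusion. WA-68 is a proteolysis-targeting chimera directed at BRD9, a bromodomain protein of the non-canonical BAF complex, which remodels chromatin. The 4 treated groups received WA-68 at 100 nM for 12, 24, 48 or 96 h, and the control group received the DMSO vehicle, with no harvest time stated. Each group held 2 biological replicates of the line, so there were 10 libraries of poly(A) RNA, and no compound that lacks activity on BRD9 was among the groups.

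BMPs are secreted dimers that assemble type I and type II receptor kinases, which phosphorylate SMAD1, SMAD5 and SMAD9. These join SMAD4 in the nucleus and act on targets, of which the ID genes are the most widely used readouts. ID proteins lack a DNA-binding region and hold basic helix-loop-helix (bHLH) factors away from DNA. SMAD6, SMAD7, BAMBI and NOG restrain the pathway, and several of them are themselves induced by it. In mesenchymal tissue the pathway is known for its part in bone and cartilage formation.

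Counts per library ran from 7349744 to 13200051. The second replicates of DMSO and of 96 h stood apart from the rest, at -24.2 and -26.0 on a second principal component (16.4% of variance) where the other libraries ran from -0.71 to 14.4. Within DMSO the difference between the replicates followed the GC content of transcripts (Spearman correlation across genes 0.571, and genes are not independent replicates). The GC content of the 10 genes lay between 51.0% for BAMBI and 59.5% for NOG, except for BMP3 at 39.2%. The tumour's 8 markers summed to 1097 to 1292 CPM (the counts after TMM scaling of library sizes) across libraries, and 4 fibroblast markers summed to 1781 to 2128 CPM. LUM alone made up 1256 to 1686 CPM of the latter, and single members moved against the sums. From DMSO to 96 h the tumour marker SIM2 went from 63.5 and 71.5 to 24.4 and 20.8 CPM, and FZD10 from 402 and 389 to 476 and 472. The fibroblast marker PDGFRA went from 52.7 and 58.5 to 28.1 and 24.4 CPM. The 5 leukocyte markers summed to at most 0.236 CPM, with PTPRC and CD3E at 0 in every library, and the 4 endothelial markers to at most 0.187 CPM, with PECAM1 and TEK at 0. In these bulk samples fewer cells carrying a transcript and less transcript per cell cannot be told apart.

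The promoters of ID1, which was higher in every treated library, and of SMAD6, which was not, are shown for comparison, as the 250 bases before the RefSeq start on the plus strand (GRCh38.p14). RefSeq windows were found for 7 of the 10 genes. BMP3, BMP7 and NOG were not matched. The ID1 window is chr20:31605039-31605288 and the SMAD6 window is chr15:66701986-66702235.
ID1: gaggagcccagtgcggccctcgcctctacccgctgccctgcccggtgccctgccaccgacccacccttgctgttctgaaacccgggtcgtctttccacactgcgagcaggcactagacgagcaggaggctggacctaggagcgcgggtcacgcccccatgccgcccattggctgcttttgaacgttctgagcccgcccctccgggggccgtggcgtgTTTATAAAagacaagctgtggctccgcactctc
SMAD6: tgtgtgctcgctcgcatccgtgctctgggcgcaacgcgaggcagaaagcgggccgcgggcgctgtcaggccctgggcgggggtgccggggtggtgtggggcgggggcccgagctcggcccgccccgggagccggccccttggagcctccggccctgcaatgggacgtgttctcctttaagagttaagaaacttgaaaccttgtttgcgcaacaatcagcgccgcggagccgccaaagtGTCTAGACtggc
Capitals mark motifs found by search on both strands. Those searched were GGCGCC and CAGAC, described for BMP and TGF-beta SMADs respectively, the palindrome GTCTAGAC, to which SMAD proteins bind in vitro, and the TATA-box letters TATAAA. The last pair was added after the windows had been read. The ID1 window held TATAAA 31 bases before the start, overlapping its match on the other strand at 33 bases, and held none of the SMAD motifs. The SMAD6 window held GTCTAGAC 12 bases before the start, with no overlapping motif, and neither GGCGCC nor CAGAC. By GENCODE that window included 8 bases of SMAD6 exon, and the gene start at 66702228 lay within GTCTAGAC. The ID1 window included 6 bases of ID1 exon. Among the genes not shown, BMP4 and BAMBI had windows with both GGCGCC and CAGAC. SMAD7 and ID3 had windows with CAGAC alone of these, and ID2 had neither. Several of those windows overlapped exons of their own gene. Of 35116 RefSeq windows of this length, 16.4% held GGCGCC, 38.0% CAGAC, 0.182% GTCTAGAC and 10.7% TATAAA. These are matches of letters and not measured sites. The BMP-responsive elements described for ID1 lie further upstream than the window shown.

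In untreated cells the 3 ligands differed widely in level. Per kilobase of exon, BMP7 stood at 57.1 and 59.3 CPM in the DMSO libraries, BMP4 at 9.84 and 11.8, and BMP3 at 0.701 and 0.895. BMP7 made up 58.2% to 62.3% of the summed BMP and GDF ligand signal per kilobase in all 10 libraries, and BMP4 9.80% to 11.9%. BMP3 made up 0.688% and 0.941% in DMSO and 1.76% to 2.67% with WA-68. On the same scale ID3 was the most abundant of the 10 genes in DMSO, with a mean of 80.9 CPM per kilobase, followed by BAMBI at 78.9, ID2 at 59.8, BMP7 at 58.2 and ID1 at 56.3. ID3 and BAMBI overlapped between the DMSO libraries, as did ID2, BMP7 and ID1. SMAD7 at 20.5, SMAD6 at 13.7 and BMP4 at 10.8 followed without overlap, and BMP3 at 0.798 and NOG at 0.413 were lowest.

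**Figure D1:**
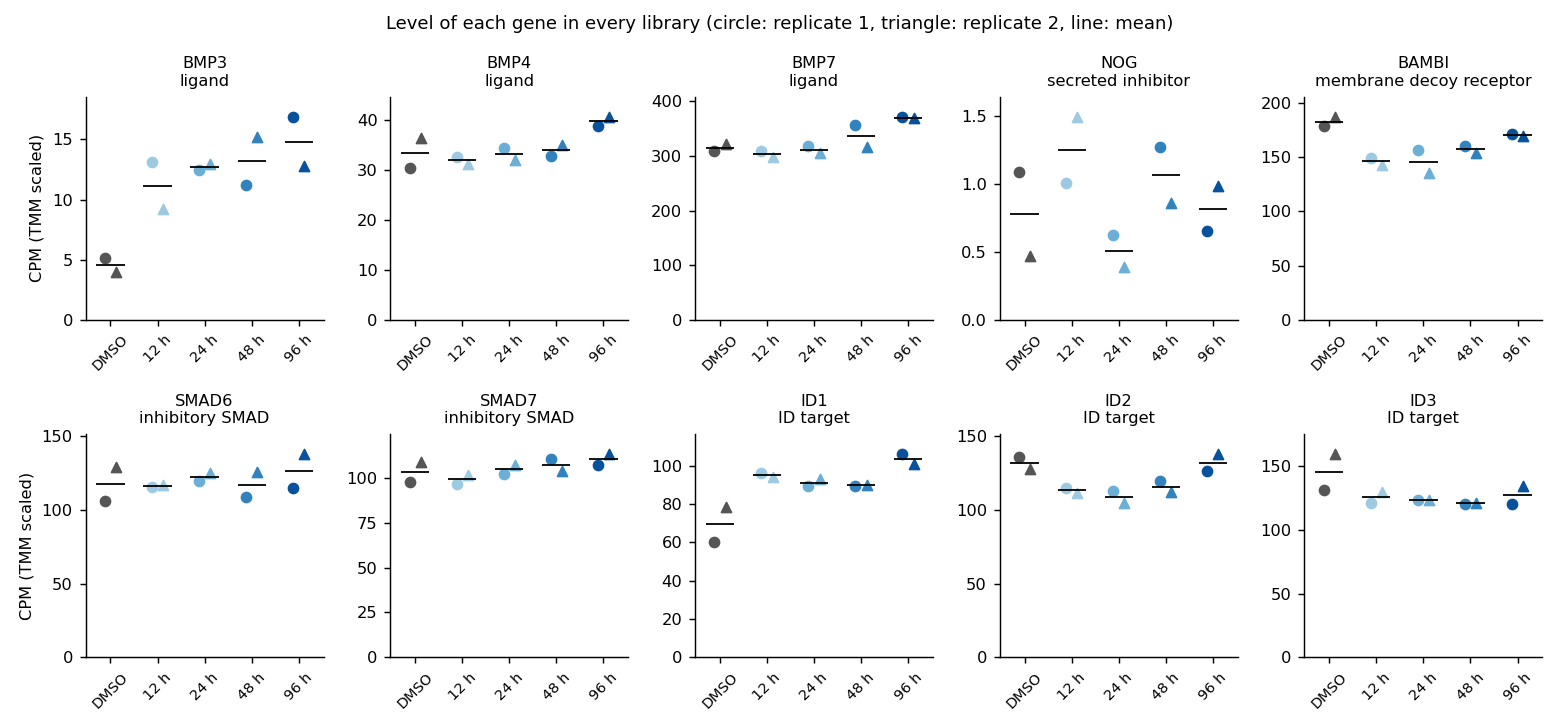
Level of each of the 10 genes in CPM after TMM scaling (vertical axes, each from 0) in DMSO and at 12, 24, 48 and 96 h of WA-68. Circles are replicate 1, triangles replicate 2 and lines the mean of both, and for BMP3 and ID1 all 8 treated libraries lie above both DMSO libraries.

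BMP3, a divergent ligand that does not activate SMADs as BMP4 and BMP7 do and is described as an antagonist of them, had the largest change. BMP3 (ENSG00000152785, GRCh38 chromosome 4, 81030965 to 81057531) stood at 5.13 and 4.02 CPM in DMSO, from 66 and 34 reads. It stood at 13.1 and 9.19 CPM after 12 h, 12.4 and 12.9 after 24 h, 11.2 and 15.2 after 48 h, and 16.9 and 12.8 after 96 h, from 80 to 180 reads. All 8 treated libraries were above both DMSO libraries, and the times overlapped among themselves. The differences from DMSO were 2.39-fold at 12 h, 2.72-fold at 24 h, 2.81-fold at 48 h and 3.22-fold at 96 h. On the log2 scale they were 1.26 (SE 0.23), 1.44 (SE 0.22), 1.49 (SE 0.22) and 1.69 (SE 0.21). Without both libraries that stood apart the log2 differences were 1.12, 1.31, 1.36 and 1.72. Between 12 and 96 h BMP3 differed by 0.43 (SE 0.19). That difference was 0.60 without those libraries, 0.20 without replicate 1 of 96 h, 0.21 without replicate 2 of 12 h and 0.71 without replicate 1 of 12 h.

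BMP4 (ENSG00000125378, chromosome 14, 53949736 to 53958761), a ligand that signals through SMAD1, SMAD5 and SMAD9, stood at 30.3 and 36.4 CPM in DMSO. It stood at 32.7 and 31.1 CPM after 12 h, 34.4 and 32.0 after 24 h, 32.8 and 35.0 after 48 h, and 38.8 and 40.6 after 96 h. Only the 96 h libraries lay outside the DMSO range, both above it, with a log2 difference of 0.26 (SE 0.11). That difference was 0.36 without the libraries that stood apart. With replicate 1 of DMSO left out it was 0.12, and with replicate 2 left out 0.38.

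BMP7 (ENSG00000101144, chromosome 20, 57168748 to 57266629), which signals through the same SMADs, was at 309 and 322 CPM in DMSO, 309 and 299 at 12 h, and 318 and 305 at 24 h. It reached 356 and 316 CPM at 48 h and 372 and 369 at 96 h, so that the 96 h libraries were above all 8 others. The log2 difference from DMSO at 96 h was 0.23 (SE 0.086) and from 12 h 0.29 (SE 0.086). Without the libraries that stood apart these were 0.27 and 0.30. The antisense gene BMP7-AS1, which shares no exon base with BMP7, held 1 read in all 10 libraries. The ratio of BMP7 to BMP4 reads stayed between 8.83 and 10.9 in all libraries. The ratio of BMP7 to BMP3 reads was 60.3 and 80.0 in DMSO and 20.9 to 32.5 in the treated libraries.

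NOG (ENSG00000183691, chromosome 17, 56593699 to 56595590), the antagonist noggin, which binds BMP4 and BMP7 outside the cell, held 14 and 4 reads in DMSO. It held 9 and 13 reads after 12 h, 5 and 4 after 24 h, 11 and 7 after 48 h, and 7 and 7 after 96 h. Every treated library lay within the DMSO range in CPM except replicate 2 of 12 h and replicate 1 of 48 h, which were above it, and replicate 2 of 24 h, which was below. The 95% intervals of its log2 difference from DMSO reached from -0.44 to 1.58 at 12 h and from -1.20 to 1.03 at 96 h. A log2 rise of 1 lay inside both intervals and was not detectable for NOG at this depth.

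BAMBI (ENSG00000095739, chromosome 10, 28677342 to 28682939), a membrane protein built like a type I receptor but without its kinase domain, stood at 178 and 187 CPM in DMSO. It stood at 149 and 143 CPM after 12 h, 156 and 135 after 24 h, 161 and 154 after 48 h, and 171 and 170 after 96 h. All 8 treated libraries were below both DMSO libraries, and by 96 h the gap had narrowed. The log2 differences were -0.32 at 12 h, -0.33 at 24 h, -0.22 at 48 h and -0.10 at 96 h, each with an SE of 0.092. At 24 h the difference was -0.44 without replicate 1 and -0.22 without replicate 2 of that time, and between these in every other setting run.

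SMAD6 (ENSG00000137834, chromosome 15, 66702228 to 66782848), which preferentially blocks BMP receptors, stood at 106 and 129 CPM in DMSO. It stood at 115 and 117 CPM after 12 h, 120 and 125 after 24 h, 109 and 125 after 48 h, and 115 and 138 after 96 h. Of the treated libraries, only replicate 2 of 96 h lay outside the DMSO range. The log2 difference at 96 h was 0.10 (SE 0.11), and those at 12, 24 and 48 h were smaller in size. A sense intronic gene within SMAD6, which shares no exon base with it, held 382 reads.

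SMAD7 (ENSG00000101665, chromosome 18, 48919853 to 48952052), which blocks BMP and TGF-beta receptors alike, stood at 97.6 and 109 CPM in DMSO. It stood at 96.6 and 102 CPM after 12 h, 102 and 107 after 24 h, 110 and 104 after 48 h, and 107 and 113 after 96 h. Its log2 differences ran from -0.05 at 12 h to 0.10 at 96 h, with an SE of 0.092, and the 95% interval at 96 h reached from -0.09 to 0.29. The ratio of SMAD6 to SMAD7 reads was between 0.984 and 1.22 in every library.

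Of the 3 ID genes in the set, ID1 was higher with WA-68 in every library, while ID2 and ID3 lay at or below their DMSO levels in most. ID4, an ID gene outside the set, stood at 68.7 and 65.1 CPM in DMSO and at 69.5 to 80.5 CPM with WA-68. All 8 treated libraries of ID4 were thus above both DMSO libraries too, by 0.20 (SE 0.091) on the log2 scale at 12 h. It was not called at any time. ID1 (ENSG00000125968, chromosome 20, 31605283 to 31606515) stood at 60.2 and 78.6 CPM in DMSO. It stood at 96.2 and 94.0 CPM after 12 h, 89.3 and 93.1 after 24 h, 89.6 and 89.9 after 48 h, and 106 and 101 after 96 h. All 8 treated libraries were above both DMSO libraries, and the DMSO libraries were farther apart (0.38 on the log2 scale) than the replicates of any treated group. The log2 differences were 0.46, 0.40, 0.38 and 0.59 in order of time, each with an SE of 0.10 or 0.11, or 1.38-fold, 1.32-fold, 1.30-fold and 1.50-fold.

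How large the ID1 difference was depended on which DMSO library stood as control. Without replicate 1 of DMSO the log2 differences were 0.27, 0.21, 0.19 and 0.40. Without replicate 2 of DMSO, which stood apart, they were 0.66, 0.60, 0.58 and 0.78. Without both libraries that stood apart they were 0.66, 0.60, 0.58 and 0.82, and with a correction for GC content 0.49, 0.44, 0.43 and 0.58.

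ID2 (ENSG00000115738, chromosome 2, 8678845 to 8684453) stood at 136 and 128 CPM in DMSO. It stood at 115 and 112 CPM after 12 h, 113 and 105 after 24 h, 119 and 112 after 48 h, and 126 and 138 after 96 h. The 6 libraries of 12 to 48 h were below both DMSO libraries, and those of 96 h reached past them on each side. The log2 differences were -0.22, -0.28, -0.19 and -0.00, with an SE of 0.091. Without the libraries that stood apart they were -0.27, -0.32, -0.23 and -0.10. ID2 shares 38 exon bases with the antisense gene ID2-AS1, which held 1481 reads over all libraries. No source used here gives the strand setting of the counting, so reads of the 2 genes may not be fully separated.

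ID3 (ENSG00000117318, chromosome 1, 23557918 to 23559794) stood at 131 and 159 CPM in DMSO. It stood at 121 and 130 CPM after 12 h, 123 and 124 after 24 h, 120 and 121 after 48 h, and 121 and 135 after 96 h. Of the 8 treated libraries, 7 were below both DMSO libraries, and replicate 2 of 96 h was between them. The log2 differences were -0.21, -0.23, -0.26 and -0.19, with an SE of 0.099. Against replicate 2 of DMSO alone they were -0.35, -0.37, -0.40 and -0.33, and against replicate 1 alone -0.06, -0.09, -0.12 and -0.04.

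**Figure D2:**
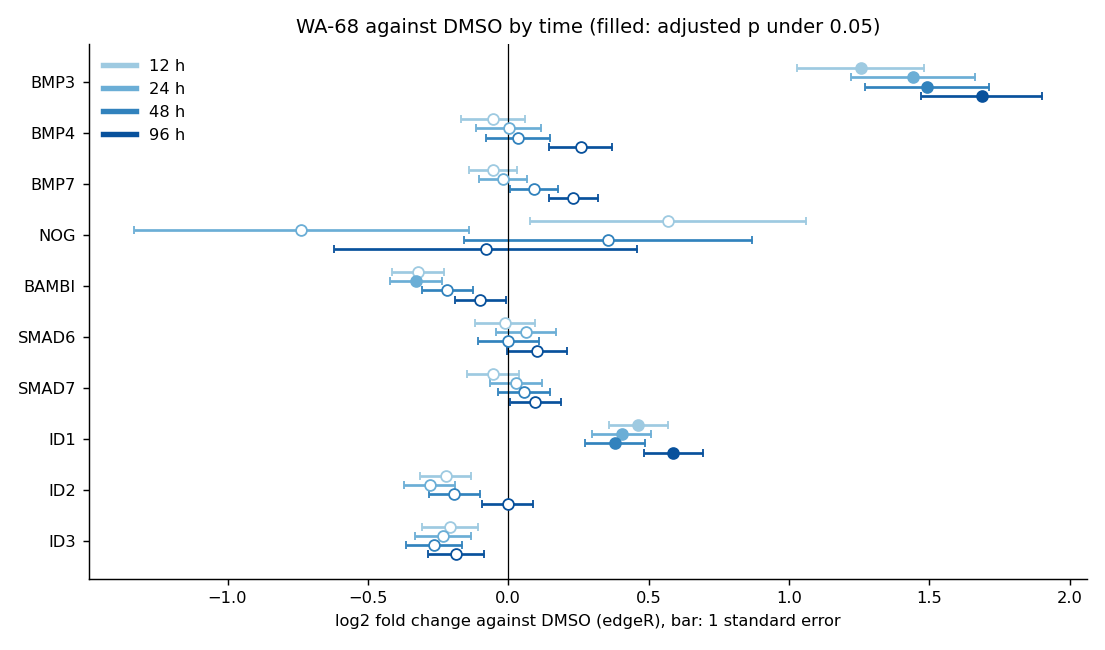
Difference of each WA-68 time from DMSO for the 10 genes, as the edgeR log2 fold change (horizontal axis) with bars of 1 standard error. Filled points had an adjusted p under 0.05, which were BMP3 and ID1 at every time and BAMBI at 24 h, and all 4 times share the same 2 DMSO libraries. Of all genes 3.15%, 3.6%, 9.39% and 13% were called at 12, 24, 48 and 96 h.

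Because ratios between genes in the same library do not depend on library scaling, the ID genes were also set against each other. ID1 gave 0.458 and 0.493 reads per ID3 read in DMSO, 0.793 and 0.724 after 12 h, 0.725 and 0.752 after 24 h, 0.745 and 0.741 after 48 h, and 0.880 and 0.750 after 96 h. The treated libraries did not overlap with DMSO, and the DMSO libraries were close to each other although their ID1 levels were not. ID1 gave 0.443 and 0.614 reads per ID2 read in DMSO and 0.735 to 0.889 in the treated libraries, again without overlap. The ratio of ID2 to ID3 was 1.03 and 0.803 in DMSO and 0.847 to 1.05 in the treated libraries, which overlapped. The summed level of the 3 ID genes was 327 and 366 CPM in DMSO and 321 to 374 CPM with WA-68, so the sum overlapped. ID1 took 26.6% and 30.3% of the summed signal per kilobase of these 3 genes in DMSO. In the treated libraries it took 37.4% to 40.9%, without overlap. ID4 was not part of these sums. The share of ID2 was 33.6% and 27.6% in DMSO and 24.8% to 28.4% in the treated libraries, which overlapped. The share of ID3 was 39.8% and 42.1% in DMSO and 31.9% to 36.3% in the treated libraries, without overlap.

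**Figure D3:**
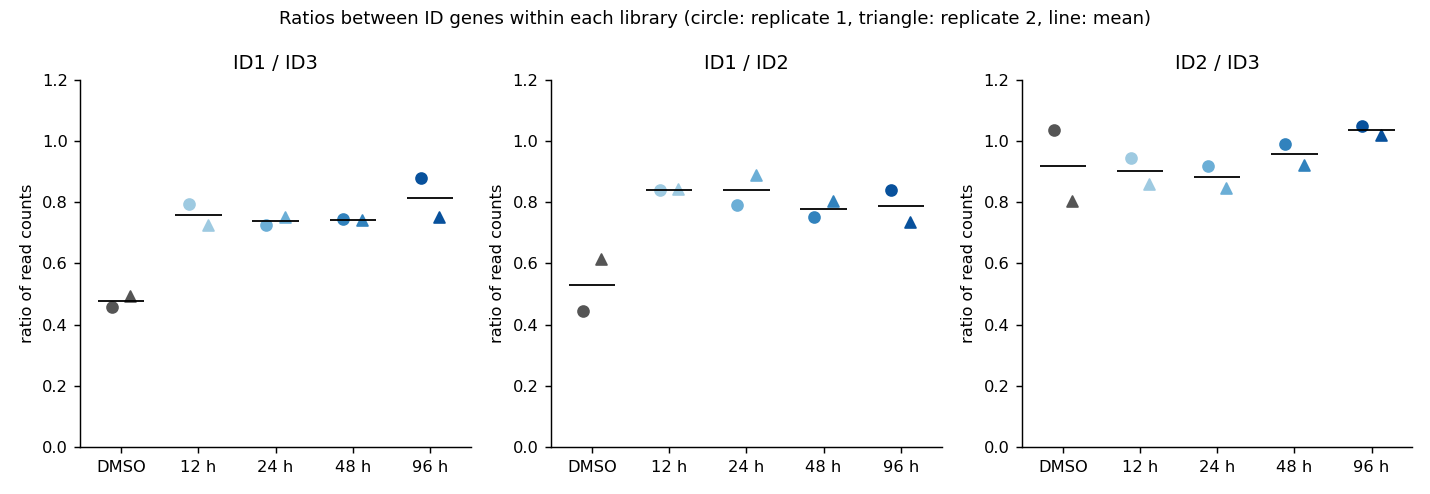
Ratio of read counts between pairs of ID genes within each library (vertical axes from 0) by group. Circles are replicate 1, triangles replicate 2 and lines the mean, and the ID1 to ID3 ratio lay at 0.458 and 0.493 in DMSO and from 0.724 to 0.880 in the 8 treated libraries.

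Counted over the 10 genes, 2 were past the threshold of an adjusted p under 0.05 at 12 h, both higher (BMP3 and ID1), where 3.15% of all genes fitted were called. At 24 h 3 were, 2 higher and 1 lower (BAMBI), beside 3.6% of all genes. At 48 h 2 were, beside 9.39%, and at 96 h 2, beside 13%, again BMP3 and ID1. Between 12 and 48 h edgeR called none of the 10, beside 1.38% of all genes, and none had an unadjusted p under 0.05. Neither DESeq2 nor limma-voom called any in that comparison. Between 12 and 96 h edgeR called none, beside 4.13%, with 5 at an unadjusted p under 0.05 and 1, BMP7, called by DESeq2 and by limma-voom. BMP3 kept its calls in all fits except at 12 h without replicate 1 of 12 h (0.98). ID1 kept its calls in 7, 4, 7 and 10 of the 10 fits that left out a library, in order of time, and in 11, 10, 10 and 11 of the 11 other settings. BAMBI kept its 24 h call in 3 of 10 and 6 of 11. Since the genes were chosen with these data in view, nothing is read from these counts. The median log2 difference of the 10 from DMSO was -0.05, -0.01, 0.05 and 0.10 at the 4 times, beside medians of all genes between -0.008 and -0.001.

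The genes whose pattern was most like that of a member were ranked by the Pearson correlation of log2 CPM over the 10 libraries, among genes with a mean of at least 5 CPM. For BMP3 these were HIPK3 (0.985), a nuclear kinase, ARAP2 (0.978) and PAG1 (0.975). For ID1 they were DGAT2 (0.973), an enzyme of triglyceride synthesis, NAGK (0.969) and WDR13 (0.951). CDKN1A (0.962) and ANO1 (0.956) were most like BMP7, and SHC1 (0.938) and MMP2 (0.935) were among the 3 most like BAMBI. For BMP4, SMAD7, ID2 and ID3 the nearest were PLEKHG2 (0.938), PLEKHA4 (0.971), PPP1R15B (0.941) and ISOC2 (0.957). The nearest to SMAD6 and NOG reached 0.865 and 0.837. Among the members, BAMBI and ID2 followed each other most closely (0.882) and BMP3 and ID3 ran most strongly opposite (-0.81). The libraries share treatment, depth and the split in GC content, so these values describe patterns in 10 libraries and carry no p.

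The rest of the pathway was taken from 9 lists with 127 further genes, of which 84 had enough counts to be tested. Of the 84, edgeR called 3 higher and 4 lower after 12 h, 2 and 3 after 24 h, 7 and 3 after 48 h, and 10 and 2 after 96 h. That is 8.33%, 5.95%, 11.9% and 14.3% of the 84, beside 3.15%, 3.6%, 9.39% and 13% of all genes, and the lists were drawn up with an earlier account of these data known. Their median log2 differences were -0.01, 0.02, 0.02 and 0.01. By list the medians at 96 h ran from -0.11 for bHLH partners and targets of ID proteins to 0.19 for TGF-beta and activin ligands and receptors, beside -0.008 for all genes. All adjusted p-values that follow are from edgeR's quasi-likelihood test, adjusted over all 16382 genes, with n = 2 per group.

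Of 16 other BMP and GDF ligands 4 were tested, with 1, 0, 1 and 1 called in order of time. Of all genes 3.15%, 3.6%, 9.39% and 13% were called. BMP5, a ligand close to BMP7, stood at 6.14 and 8.16 CPM in DMSO, from 79 and 69 reads, at 12.7 and 12.1 CPM at 48 h, and at 15.8 and 14.2 at 96 h. It rose by 0.82 (SE 0.18, adjusted p = 0.00421) at 48 h and by 1.11 (SE 0.17, adjusted p = 9.23e-05) at 96 h on the log2 scale. The 48 h call was lost without replicate 1 of DMSO (0.60) or replicate 1 of 48 h (0.78), and the 96 h call held whichever library was left out. GDF11, which signals through SMAD2 and SMAD3, fell by 0.41 (SE 0.094, adjusted p = 0.0141) at 12 h, from 117 and 121 to 90.6 and 88.0 CPM, a call lost without either 12 h library (-0.43 and -0.39). At later times GDF11 was -0.28, -0.13 and -0.21 from DMSO and was not called.

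No BMP receptor or co-receptor passed the test. Of 12 listed, 9 were tested and edgeR called 0 at each time against DMSO, with 2, 0, 3 and 2 at an unadjusted p under 0.05. Of all genes 3.15%, 3.6%, 9.39% and 13% were called at these times. With so few genes tested, 0 is not far from those shares, and nothing is read from it. The one with the most reads, the type II receptor BMPR2, stood at 233 and 222 CPM in DMSO and at 259 and 251 at 96 h, a log2 difference of 0.16 (SE 0.087). Of the 6 receptor-regulated and common SMADs all were tested and 0 called, beside the same shares of all genes, with 2, 2, 1 and 1 at an unadjusted p under 0.05. The one with the most reads was SMAD2, of the TGF-beta branch, at 440 and 373 CPM in DMSO and 407 and 392 at 96 h.

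Of 20 secreted modulators listed, 12 were tested, and 2, 1, 3 and 3 were called higher at 12, 24, 48 and 96 h, with 0 lower. Of all genes 3.15%, 3.6%, 9.39% and 13% were called, in both directions. The 12 h call of TLL1 was kept in 3 of the 10 fits that left out a library and in 9 of 11 other settings, with 0.31 without replicate 2 of DMSO. The 24 h call of FSTL3 was kept in 7 of 10 and 9 of 11. FSTL3, a follistatin-like protein that binds activins, rose from 23.8 and 24.9 CPM to 36.2 and 37.3 at 12 h and 40.4 and 41.7 at 96 h. Its log2 change was 0.60 (SE 0.11, adjusted p = 0.00209) at 12 h and 0.75 (SE 0.11, adjusted p = 3.55e-05) at 96 h, and both calls held whichever library was left out. GREM1, gremlin, an antagonist of BMP4 and BMP7, stood at 163 and 158 CPM in DMSO, 207 and 208 at 48 h, and 241 and 256 at 96 h. GREM1 rose by 0.37 (SE 0.089, adjusted p = 0.0102) at 48 h, a call lost without either 48 h library (0.37 and 0.38). It rose by 0.63 (SE 0.089, adjusted p = 3.43e-05) at 96 h, which held whichever library was left out. TLL1, a protease that cleaves the BMP inhibitor chordin, rose by 0.55 (SE 0.12, adjusted p = 0.00296) at 96 h, from 27.9 and 22.5 to 40.0 and 34.2 CPM. That call was lost without replicate 1 of 96 h (0.44). The 3 genes that rose at 96 h thus differ in what they are known to do to ligands.

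Of 17 intracellular regulators all were tested, and 1 was called at 12, 24 and 48 h and 2 at 96 h. That is 5.88% at the first 3 times and 11.8% at 96 h, beside 3.15%, 3.6%, 9.39% and 13% of all genes. ZNF423, a zinc-finger protein that acts with SMAD1 and SMAD4 on BMP targets, fell from 91.3 and 109 CPM to 56.0 and 62.2 at 12 h and 61.0 and 77.0 at 96 h. Its log2 change was -0.75 (SE 0.11, adjusted p = 0.000215) at 12 h and -0.54 (SE 0.11, adjusted p = 0.0014) at 96 h. The first held whichever library was left out, and the second was lost without replicate 1 of 96 h (-0.36). NEDD4L, a ubiquitin ligase for SMADs, rose by 0.32 (SE 0.093, adjusted p = 0.0256) at 96 h, a call lost without replicate 1 of DMSO (0.25) or replicate 2 of 96 h (0.24).

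Of 18 other BMP response genes listed, 11 were tested. In order of time 0, 0, 2 and 1 were called, which is 18.2% at 48 h and 9.09% at 96 h. Of all genes 3.15%, 3.6%, 9.39% and 13% were called. With so few genes tested, nothing is read from these counts. MSX1, a homeobox target, fell by 0.45 (SE 0.14, adjusted p = 0.037) at 48 h, from 42.9 and 57.7 to 41.0 and 31.7 CPM. That call was lost without replicate 2 of DMSO (-0.24) or replicate 2 of 48 h (-0.27), and without either 12 h library or replicate 2 of 24 h (each -0.44). It was lost too in 5 of the 11 other settings, which were upper-quartile and library-size scaling, the 4 compared libraries alone, DESeq2, and the removal of both libraries that stood apart (-0.23). DLX3, a homeobox factor of skin and bone, was called higher at 48 and 96 h (adjusted p = 0.00742 and 0.00622), on 2 and 1 reads in DMSO, 8 and 13 at 48 h and 15 and 6 at 96 h. These counts are too low for a fold. The 48 h call was lost without replicate 2 of 48 h, and the 96 h call without replicate 1 of DMSO or replicate 1 of 96 h.

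In the TGF-beta branch, of 14 ligands and receptors 7 were tested, with 0, 0, 1 and 1 called in order of time. Of all genes 3.15%, 3.6%, 9.39% and 13% were called. TGFBR3, betaglycan, a co-receptor for TGF-beta and some BMPs, rose by 0.55 (SE 0.099, adjusted p = 0.000449) at 96 h, from 59.9 and 58.0 to 78.9 and 95.0 CPM, and held whichever library was left out. The 48 h call of TGFBR3 (0.38) was lost without either 48 h library (0.35 and 0.42). Of 10 response genes 8 were tested, with 2 called lower at 12 h and at 24 h and 1 lower at 48 h. At 96 h 1 was called higher and 1 lower, and the shares of all genes were those above. CCN2, a matricellular protein, rose from 3.96 and 3.78 to 8.43 and 8.70 CPM at 96 h (log2 change 1.13, SE 0.22, adjusted p = 0.000838). SNAI2, a repressor of epithelial genes, was called lower at all 4 times, by -0.59 at 12 h (adjusted p = 0.000851) to -0.64 at 96 h (adjusted p = 7.53e-05). The 12 h call of SNAI2 was lost without replicate 1 of 12 h (-0.55). JUNB, an AP-1 subunit, fell by 0.45 (SE 0.12) at 12 and at 24 h (adjusted p = 0.0347 and 0.0329). Both JUNB calls were lost without replicate 2 of DMSO (-0.36) or any 1 library of 12 or 24 h (-0.51 to -0.39). Both were lost too with library-size scaling and DESeq2, and the 24 h call with the 4 compared libraries alone.

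Among 16 bHLH partners and targets of ID proteins 12 were tested, with 1, 1, 1 and 2 called in order of time. Of all genes 3.15%, 3.6%, 9.39% and 13% were called. HES4, a bHLH repressor, rose at all 4 times, by 0.52 (SE 0.13, adjusted p = 0.0327) at 12 h to 0.70 (SE 0.13, adjusted p = 0.000714) at 96 h, from 14.4 and 13.7 to 24.3 and 21.3 CPM. The 96 h call held whichever library was left out, and the 12 h call was lost without either DMSO library (0.55 and 0.49) or either 12 h library (0.50 and 0.54). The 24 and 48 h calls of HES4 were lost without replicate 2 of DMSO (0.50 and 0.46) or either library of their own time (0.46 to 0.59). DESeq2 called HES4 at 96 h alone of the 4 times, and the 24 h call was lost with the 4 compared libraries alone. CDKN1A, the cell-cycle inhibitor p21, which ID1 is known to repress, stood at 18.1 and 18.7 CPM in DMSO, 17.8 and 16.0 at 12 h, and 28.8 and 29.3 at 96 h. CDKN1A rose by 0.66 (SE 0.13, adjusted p = 0.0011) at 96 h, and held whichever library was left out. The E proteins TCF3, TCF4 and TCF12, the main partners of ID proteins, were not called at any time, which does not show them unchanged. At 12 h their log2 differences were -0.31 (SE 0.093, adjusted p = 0.0706), -0.06 (SE 0.087) and -0.22 (SE 0.085). TCF12 stood at 315 and 288 CPM in DMSO and at 256 to 269 CPM in the treated libraries.

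**Figure D4:**
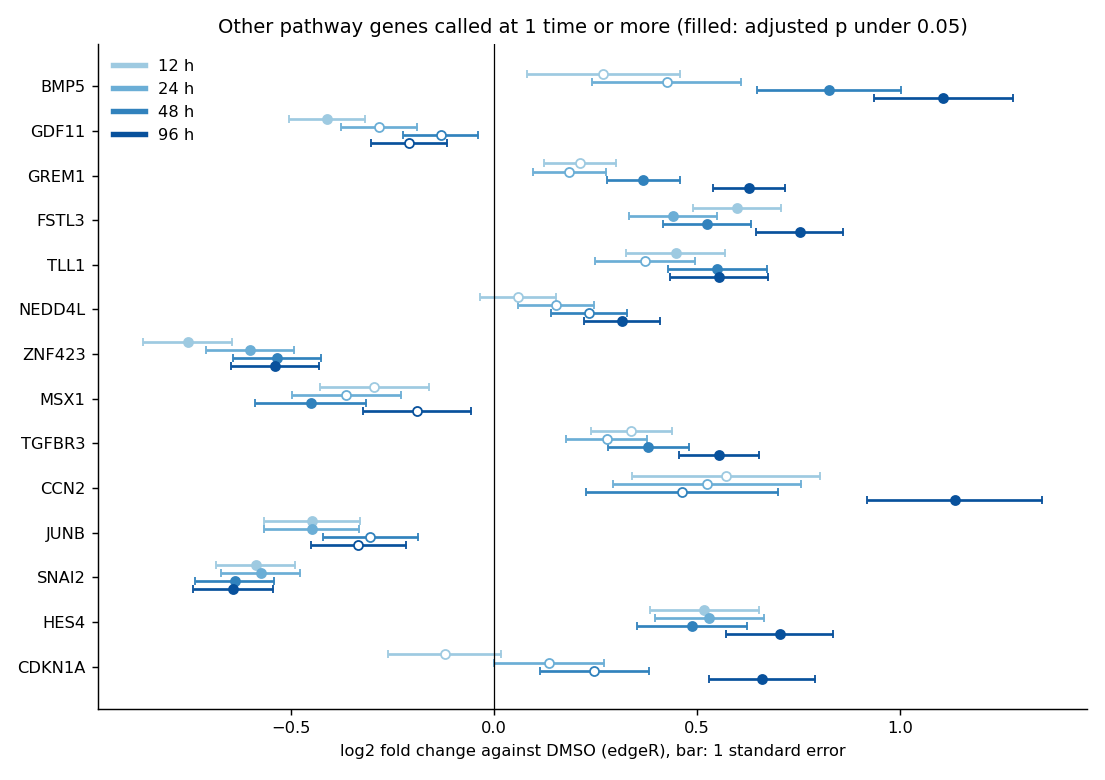
Difference from DMSO of the 14 other pathway genes called at 1 time or more, apart from DLX3 (edgeR log2 fold change with bars of 1 standard error). Filled points had an adjusted p under 0.05, with BMP5 and GREM1 filled at 48 and 96 h, FSTL3, ZNF423, SNAI2 and HES4 at all 4 times, and CDKN1A and CCN2 at 96 h alone.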

How the data were processed

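Counts of poly(A) RNA reads per gene were deposited as raw whole numbers by the authors for 10 libraries. Per the submitters' processing notes, bcl2fastq, FastQC, Trim Galore with cutadapt, STAR on GRCh38 and featureCounts were used, and no source used here gives their versions, the annotation release or the strand setting. Library totals were 7349744 to 13200051. The 10 genes and the 9 lists were chosen with earlier results of these data known. Positions are from GENCODE 29 (GRCh38), promoters from RefSeq (GRCh38.p14).

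edgeR 4.0.16 (R 4.3.3) fitted TMM-scaled counts of 16382 genes kept by filterByExpr, with 1 mean per group over all 10 libraries and quasi-likelihood F tests, with calls at an adjusted p (Benjamini-Hochberg) under 0.05, and was tested on simulated data. SE is the log2 difference over the square root of F. Lists name each called gene, at most 5 per list by smallest p, otherwise the most abundant, and each of the 10 genes takes its 3 nearest patterns. Not every gene that this rule names is reported here. Alternatives were RLE, upper-quartile and library-size scaling, no filter, a minimum of 5 CPM in 2 libraries, the replicate number as a block, a fit of the 4 compared libraries alone, DESeq2 1.42.0, limma-voom (limma 3.58.1), a GC offset, each library left out, and both libraries that stood apart left out. Each p-value rests on how far the 2 labelled biological replicates of this line differed, pooled over the 5 groups. That spread was moderated towards the trend over all genes, with 18.5 prior beside 5 residual degrees of freedom. A gene's p-value and SE therefore do not measure its own replicate spread alone.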

Additional observations from a re-analysis of the deposited data

Results flagged for a closer look

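Between times of WA-68, edgeR called 1 of the 84 tested pathway genes outside the 10 described above at 48 h against 12 h (1.19%, beside 1.38% of all genes) and 7 at 96 h against 12 h (8.33%, beside 4.13%). The calls are at an adjusted p under 0.05 over all genes, with n = 2 per group. The contrasts compare no DMSO library, but the DMSO libraries enter the fit. With either replicate of DMSO left out, which kept 1 DMSO library in the fit, the calls over all genes rose in both contrasts. At 48 h against 12 h ASCL2, a bHLH factor of stem cells, was higher by 0.95 on the log2 scale (adjusted p = 0.0299), with 5.70 and 6.55 CPM at 12 h and 12.9 and 10.7 at 48 h beside 10.0 and 8.27 in DMSO. At 96 h against 12 h the log2 differences were 0.84 for BMP5 (adjusted p = 0.0045), 0.42 for GREM1 (0.00678), 0.78 for CDKN1A (0.00102) and 0.38 for KLF10 (0.0168), a TGF-beta induced repressor. They were 0.96 for HEYL (0.0469), a Notch and BMP target, 0.45 for TGFB1 (0.0452) and -0.44 for BHLHE41 (0.0266), a bHLH repressor of the clock.

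Only CDKN1A kept its call without each library in turn and under every other setting run. BMP5, GREM1 and ASCL2 lost theirs without either 12 h library (0.81 and 0.87 for BMP5, 0.41 and 0.44 for GREM1, 0.86 and 1.06 for ASCL2). ASCL2 also lost it without either 48 h library (0.81 and 1.09), and KLF10 without either 12 h library (0.35 and 0.43) or replicate 2 of 96 h (0.35). BHLHE41 lost its call without either 12 h library, replicate 2 of 24 h or replicate 1 of 96 h (-0.45 to -0.33). HEYL kept its call in 2 of the 10 fits that left out a library, and TGFB1 in 4. HEYL lost it without each of the 8 treated libraries (0.69 to 1.29), and TGFB1 without either library of 12 h or 24 h, replicate 1 of 48 h or replicate 2 of 96 h (0.21 to 0.47). Both lost their calls under the replicate block (0.97 for HEYL and 0.45 for TGFB1), library-size scaling, DESeq2 and the removal of both libraries that stood apart. HEYL lost its call with the 4 compared libraries alone, TGFB1 with limma-voom, and BHLHE41 with DESeq2. TGFB1 was at 70.4 and 97.8 CPM in the 96 h replicates, the second of which stood apart from the other libraries.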

How the results depend on the processing

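No setting turned the direction of a called gene named here. Counts called in the order 12, 24, 48 and 96 h against DMSO were 2, 3, 2 and 2 of the 10 genes and 7, 5, 10 and 12 of the 84 others, with 0 and 1 for 48 h against 12 h and 0 and 7 for 96 h against 12 h. Of all genes 3.15%, 3.6%, 9.39% and 13% were called at the 4 times, then 1.38% and 4.13%. Leaving out each library gave 0 to 3, 1 to 3, 1 to 2 and 2 to 3 of the 10, then 0 and 0 to 1, and of the 84 2 to 11, 1 to 9, 4 to 14 and 12 to 18, then 0 to 2 and 1 to 8. For 96 h against 12 h, 1 of the 10 was called with the 5 CPM filter, with no filter, by DESeq2, limma-voom, upper-quartile scaling and the GC offset, and 2 without both libraries that stood apart. That setting left 1 library in DMSO and 1 in 96 h. It called more of the 10 at 96 h, and more of the 84 at 12 h, 24 h and for 48 h against 12 h. In each of these comparisons it also called more of all genes. The GC offset called 12, 9 and 20 of the 84 at 12, 24 and 96 h and 3 for 48 h against 12 h. Over all 16382 genes it called 1151, 1317, 3155 and 660 in these comparisons, where the main fit called 516, 589, 2129 and 226. DESeq2 called 4 at 12 h, 2 at 24 h and 4 for 96 h against 12 h. Over all genes it called 365, 422 and 528 there, where the main fit called 516, 589 and 676. With only the 4 libraries compared, 1 of the 10 was called at 24 h and 1 at 48 h, and of the 84 2 at 24 h and 3 for 48 h against 12 h. Over all genes that setting called 288 at 24 h, 953 at 48 h and 939 for 48 h against 12 h. The main fit called 589, 1539 and 226. The cause of these shifts was not tested, beyond the fewer libraries of the last setting. Replicate numbers did not pair the samples (correlation of deviations -0.123 to 0.186), and the replicate block gave 2, 2, 2 and 2 of the 10, without BAMBI at 24 h, and 7, 5, 10 and 12 of the 84, then 0 and 1 for 48 h and 0 and 5 for 96 h against 12 h. Of all calls at 12, 24, 48 and 96 h, 39.0%, 37.4%, 42.7% and 47.3% were higher, against 62.4%, 59.5%, 60.3% and 60.2% with library size alone and 55.7% and 57.6% at 48 and 96 h with upper-quartile scaling. Of 1249 values of the 10 genes under alternatives, 90 lay over 1 SD from those given. NOG and BMP3 are limited by their read counts.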
